A study of Mus musculus with 18 samples.

Results

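Coagulation and fibrinolysis genes were followed in 18 RNA-Seq libraries of sorted mouse CD45+ leukocytes, 3 in each of 6 groups. The set held 9 genes, chosen by name from the 49585 genes of the count table: F3, which starts clotting, the clotting factors F7, F10, F5 and F13a1, the anticoagulant receptor Thbd, and the fibrinolysis genes Plau, Plaur and Serpinb2. All mice carried Kaede, a protein that UV light turns from green to red, so that red cells in a draining lymph node (LN) are taken to have been in the lit tissue before. For the joint, the paper reports slightly more red LN cells immediately after lighting than without it, so some may have been converted in the node. The mice, 6 to 10 weeks old, received OT-II CD45.1 Th1 cells i.v., were immunized with OVA in CFA, and were then challenged with 100 µg of heat-aggregated ovalbumin (HAO) in the footpad (joint) or the ear pinna (skin). In the inflamed mice, tissue was photoconverted on day 3 and Kaede red cells were sorted 24 hours later from the tissue (joint nonmigrated, skin nonmigrated) or from its draining LN (joint migrated, skin migrated). The remaining groups were labelled as steady-state cells that had migrated to the LN from the joint (PBS in the footpad) or the ear (named Naive), and are called the joint node and skin node steady state here. The protocol describes T cell transfer and immunization for PBS-challenged mice as well, and does not say whether the Naive mice received them. The titles of the joint node samples also carry the letters KG, which the labels do not explain, while the protocol gives a Kaede red sort for all samples, so whether these node cells had been converted in the tissue could not be settled. Each library was made from pooled mice, so that n = 3 counts pools, and p-values measure the spread between pools. The paper describes the inflamed skin samples as a second data set, made after the joint one. Joint against skin is therefore also a comparison of data sets. To which of them the Naive samples belong is not stated.

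Clotting begins when tissue factor (F3) on a cell surface binds factor VII (F7), and this pair activates factor X (F10), which together with factor V (F5) turns prothrombin into thrombin. Factor XIII (its A chain is F13a1) crosslinks the fibrin that thrombin makes, whereas thrombomodulin (Thbd) binds thrombin and turns it towards activating the anticoagulant protein C. Fibrin is removed by plasmin, which urokinase (Plau), held on cells by its receptor (Plaur), makes from plasminogen, and SerpinB2 (PAI-2) inhibits urokinase. Monocytes and macrophages are known to make several of these proteins, and fibrin deposits are a known feature of inflamed joints.

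On mm10, F3 lay at chr3:121723537-121735048 (plus strand), Thbd at chr2:148404466-148408188 (minus), Plau at chr14:20836660-20843385 (plus) and Plaur at chr7:24462484-24475968 (plus), none with another annotated gene overlapping it. F7 (chr8:13026034-13035809) and F10 (chr8:13037308-13056676) were neighbours on the plus strand, 1498 bases apart with no annotated gene between them. F5 (chr1:164151838-164220277, plus) shared 262 exonic bases with the antisense gene Gm16548, F13a1 (chr13:36867178-37050244, minus) shared 74 with the antisense gene Gm30489, and Serpinb2 (chr1:107511423-107535478, plus) shared 291 with Serpinb10 on its own strand. Reads from those stretches could be split or lost in counting, and the strand setting of the libraries is not given in the sources used here.

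The promoter windows of RefSeq (GRCm38.p6, 250 bases before to 50 after a gene's start) covered 7 of the 9 genes, Thbd and Plau being the exceptions. TGANTCA, the letters bound by AP-1 factors, occurred on either strand in 3 of these 7 genes (F3, Plaur and Serpinb2) and in 7.81% of all 32851 windows. Serpinb2 and F13a1 had 2 windows each, so a share of genes and a share of windows are not quite alike. F3 and Serpinb2 are shown because, among 15948 genes compared, F3 was the one whose level ran closest to that of Serpinb2. Plaur is shown because it holds the same letters. The 250 bases before each start are printed 5′ to 3′ on the plus strand, with TGANTCA in capitals.
F3, chr3:121723287-121723536: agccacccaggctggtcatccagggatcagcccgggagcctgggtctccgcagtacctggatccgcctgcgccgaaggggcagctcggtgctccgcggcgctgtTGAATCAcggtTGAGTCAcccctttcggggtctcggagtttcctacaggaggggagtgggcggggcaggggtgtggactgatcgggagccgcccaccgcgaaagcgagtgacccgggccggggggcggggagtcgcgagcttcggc
Serpinb2, chr1:107511173-107511422: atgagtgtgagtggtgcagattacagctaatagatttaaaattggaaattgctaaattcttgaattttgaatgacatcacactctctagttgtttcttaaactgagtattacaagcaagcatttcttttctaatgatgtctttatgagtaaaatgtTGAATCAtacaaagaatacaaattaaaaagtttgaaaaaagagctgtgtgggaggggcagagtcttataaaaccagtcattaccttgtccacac
Plaur, chr7:24462233-24462482: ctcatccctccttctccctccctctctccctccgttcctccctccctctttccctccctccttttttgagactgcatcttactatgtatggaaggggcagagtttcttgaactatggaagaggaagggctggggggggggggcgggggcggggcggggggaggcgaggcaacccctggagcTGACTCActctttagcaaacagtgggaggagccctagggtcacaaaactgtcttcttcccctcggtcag
The F3 window held the letters at positions -146 and -135 from the start, the Serpinb2 window shown at -94 and the Plaur window at -69. The other Serpinb2 window overlaps the one shown and held them at -181 from its own start. TATAAA, the letters of a TATA box, occurred in the F3 and Serpinb2 windows and in 13.6% of all windows. In the Serpinb2 window shown it lay at -29 and in the other at -116, and in F3 on the reverse strand at 43 bases after the start. GAGGAA, an ETS-type core, occurred in the windows of F7, F13a1 and Plaur and in 28.3% of all windows. These are letter matches in sequence, not measured binding.

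Assigned counts per library ran from 19239531 to 43814403, and the skin nonmigrated and skin migrated libraries (19239531 to 22528895) were the shallowest. The floor of 3 counts per library corresponded to 0.0616 to 0.18 CPM (read counts scaled to a common library size, with TMM factors over all 18 libraries) and covers counting error only. Ptprc, the gene of the CD45 protein used for sorting, was at 1155 to 2530 CPM in all libraries. Genes of cells without CD45 were nevertheless read: summed fibroblast markers reached 57.5 to 353 CPM in the nonmigrated libraries against 0.336 to 2.15 CPM in all others, and keratinocyte markers reached 23.7 to 281 CPM in the skin nonmigrated libraries against 0.299 to 2.28 CPM elsewhere.

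**Figure D1:**
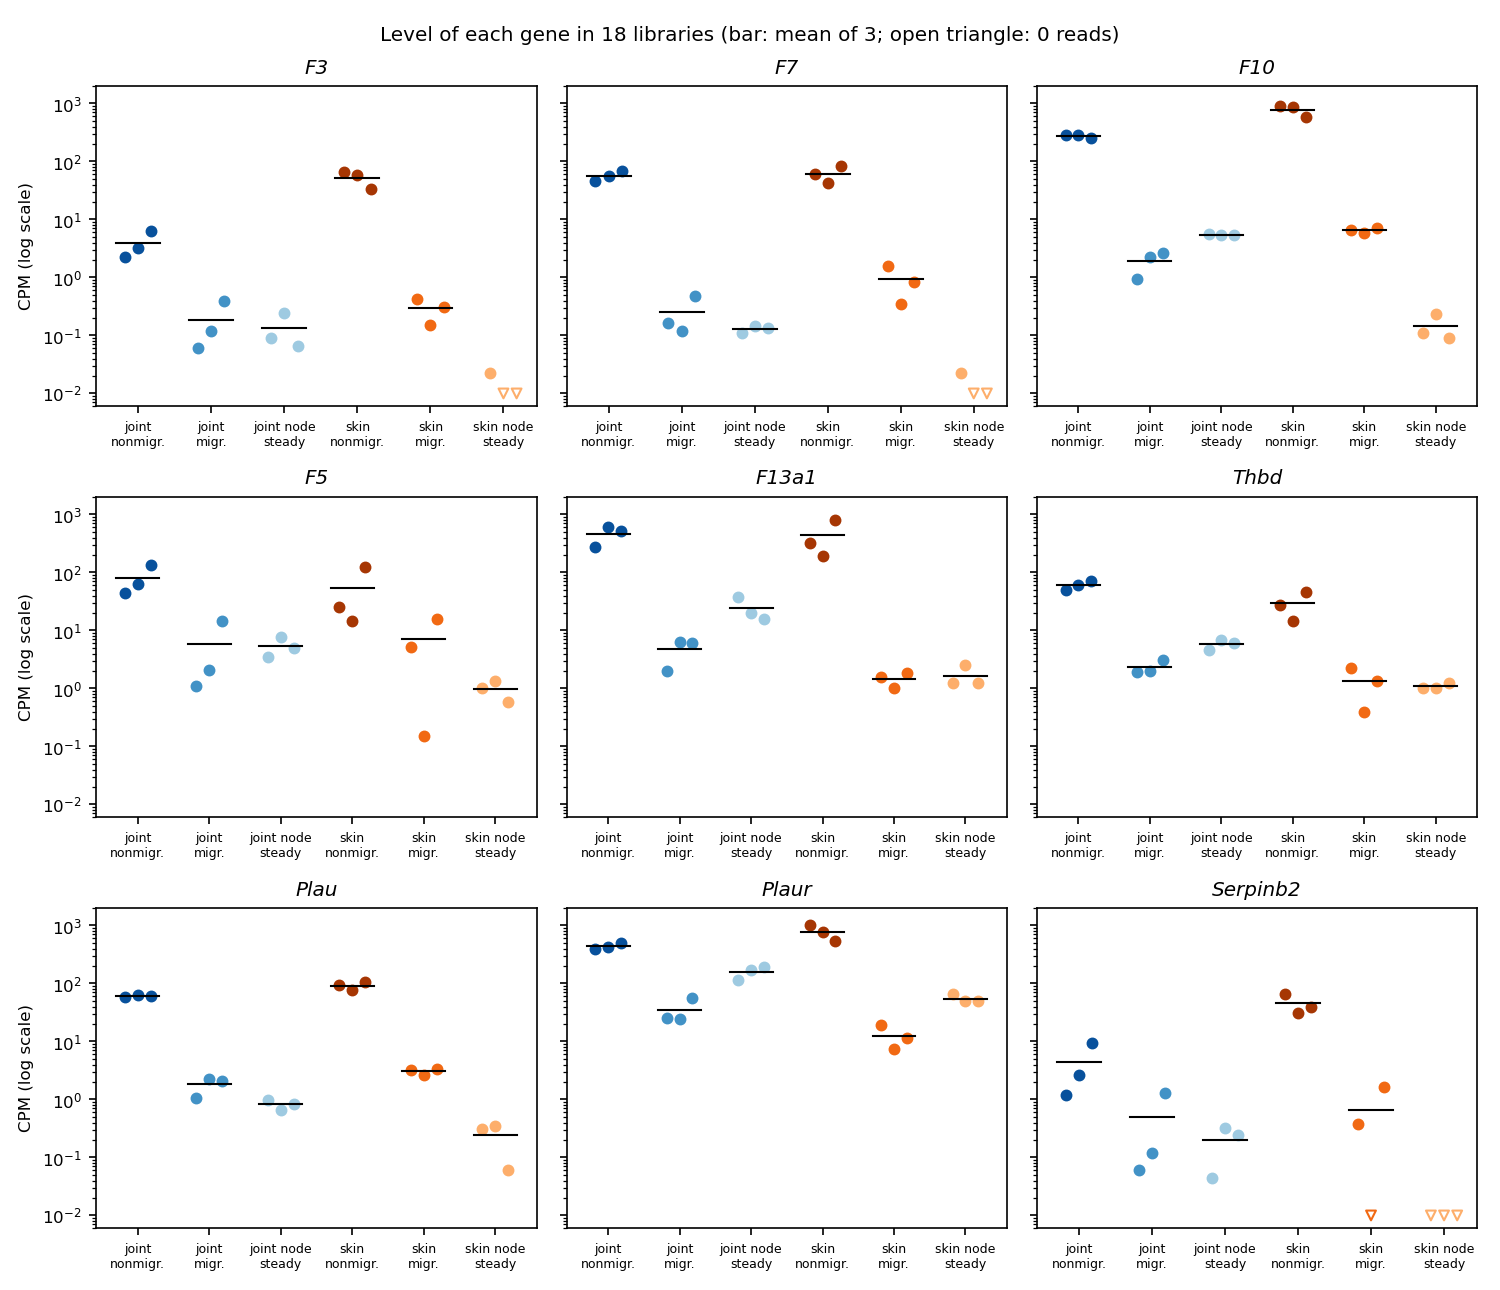
Level of each of the 9 genes in CPM (log axis) in the 18 libraries, with 3 points a group in replicate order, a bar at the mean of 3, and an open triangle, drawn at 0.01, for a library with 0 reads. The nonmigrated groups held the highest mean of every gene, and the lowest means lay in a steady-state node or in a migrated group.

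Nonmigrated leukocytes of both sites carried most of the coagulation and fibrinolysis mRNA. The summed level of the 9 genes was 1172 to 1619 CPM in joint nonmigrated and 2044 to 2578 CPM in skin nonmigrated cells, against 32.9 to 86.1 CPM in joint migrated and 17.8 to 44 CPM in skin migrated cells. At steady state the node sum was 165 to 226 CPM (joint) and 52.7 to 69.3 CPM (skin). Per kilobase of exon, which allows genes to be compared, Plaur and F10 led in the skin nonmigrated cells at 297 ± 90.7 and 285 ± 61.4 CPM per kilobase (SD, n = 3). The joint nonmigrated order opened with Plaur at 168 ± 19.3, F10 at 101 ± 7.39 and F13a1 at 69.2 ± 24.8 CPM per kilobase. F3 and Serpinb2 closed it at 1.57 ± 0.841 and 1.87 ± 1.85 CPM per kilobase in the joint, whereas in the skin they stood at 20.8 ± 6.87 and 19.4 ± 7.82 and the lowest levels per kilobase were those of F5 (7.26 ± 7.98) and Thbd (7.87 ± 4.28). In the steady-state nodes Plaur alone made up 78% (joint) and 92.8% (skin) of the summed CPM on average.

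**Figure D2:**
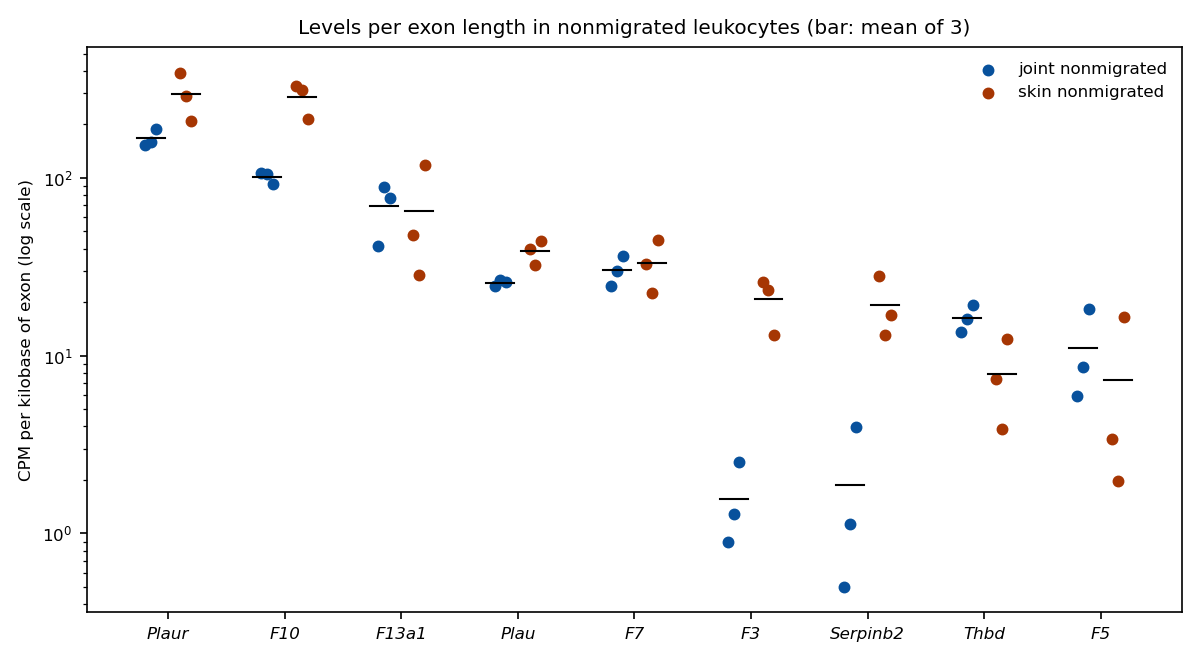
Level of each gene per kilobase of exon (CPM per kilobase, log axis) in the 3 joint nonmigrated and 3 skin nonmigrated libraries, ordered by the skin mean, with bars at the mean of 3. F3 and Serpinb2 stood at 1.57 and 1.87 CPM per kilobase in the joint and at 20.8 and 19.4 in the skin.

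Migrated cells were compared with nonmigrated cells of the same site, that is, cells that left the tissue with cells that stayed. The former were taken from the LN and the latter from the tissue, which were prepared differently. Leaving therefore cannot be told apart from being in the LN or from handling. The paper, too, says that such differences may come from adaptation to a new tissue. In the joint all 9 genes were called lower in migrated cells (adjusted p below 0.05 and a change of more than 1 on the log2 scale), where 18.4% of the 16777 genes tested were. In the skin 8 of 9 were called lower, where 19.7% of all genes were, the exception being F5. The median log2 change of the 9 was -4.70 in the joint and -6.04 in the skin, beside 0.02 and 0.01 over all genes tested. In bulk samples fewer cells of a type and less RNA per cell cannot be told apart. Summed levels of 7 monocyte and macrophage markers fell in parallel, from 5588 to 6784 CPM in joint nonmigrated to 280 to 411 CPM in joint migrated cells and from 3433 to 5569 to 383 to 509 CPM in the skin, with 6 of 7 called lower at each site. All 6 neutrophil markers were called lower as well (summed 4962 to 15243 against 33.2 to 86.1 CPM in the joint, and 1419 to 2497 against 12.4 to 25.7 CPM in the skin). The part of these cell types in the changes of the 9 genes was not tested.

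**Figure D3:**
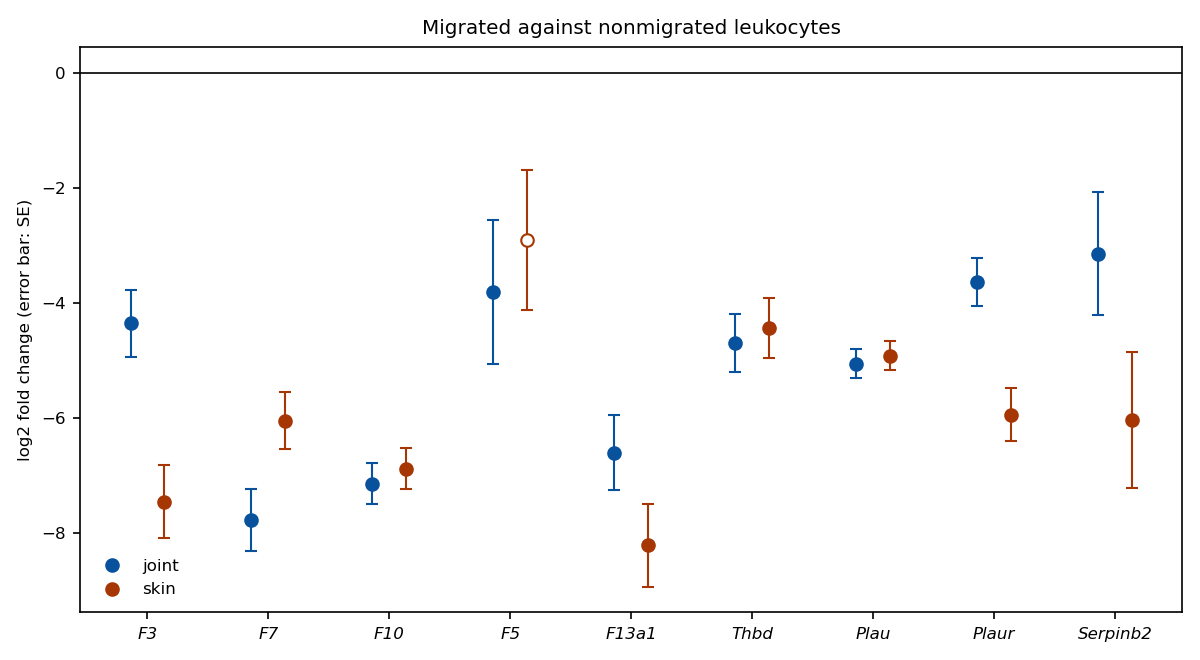
Log2 fold change of each gene between migrated and nonmigrated cells in the joint and in the skin, from edgeR, with the SE as error bar; filled points were called and open points were not. All points lie below 0, from -2.91 (F5, skin) to -8.22 (F13a1, skin).

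F3, the membrane protein that starts clotting, was at 65.7, 59.3 and 32.9 CPM in the 3 skin nonmigrated libraries and at 0.419, 0.15 and 0.31 CPM (9, 3 and 7 reads) in skin migrated cells. In the joint it was at 2.27, 3.26 and 6.34 CPM in nonmigrated and at 0.0616, 0.117 and 0.386 CPM (3, 5 and 18 reads) in migrated cells. The ranges did not overlap at either site, and every joint nonmigrated library lay below every skin nonmigrated one. F3 fell 176-fold in the skin (log2 -7.46 ± 0.629 SE, adjusted p = 2.69e-06) and 20.5-fold in the joint (log2 -4.36 ± 0.583, adjusted p = 7.34e-05; -5.39 without joint migrated replicate 3). The nonmigrated cells differed between the sites, with F3 13.3-fold lower in the joint (log2 -3.74 ± 0.48, adjusted p = 0.000384). Krt5, Krt14, Krt10 and Krt1, 4 keratinocyte markers, summed to 139, 281 and 23.7 CPM in the 3 skin nonmigrated libraries and to 0.299 to 1.78 CPM in the joint nonmigrated ones, and the part of such cells in the F3 level was not tested. The size of the fall was 3.10 ± 0.907 log2 units smaller in the joint, which missed the threshold (adjusted p = 0.059) and passed it when DESeq2 was used (0.0028), when all 18 libraries were fitted together (0.0245), or without joint nonmigrated replicate 3 (0.032), joint migrated replicate 1 (0.0394) or skin nonmigrated replicate 3 (0.0199). Without joint migrated replicate 3 it was 2.08 (adjusted p = 0.26).

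F7, the protease that tissue factor binds, was measured in the nonmigrated cells of both sites, at 45.8, 55.8 and 67.6 CPM in the joint and 60.6, 41.8 and 83.1 CPM in the skin. Those ranges overlapped, and the difference of -0.13 ± 0.366 log2 units was not called (adjusted p = 0.81). Migrated cells held 0.164, 0.117 and 0.472 CPM (8, 5 and 22 reads) in the joint and 1.58, 0.35 and 0.842 CPM (34, 7 and 19 reads) in the skin. No migrated library came near a nonmigrated one. The fall was 220-fold in the joint (log2 -7.78 ± 0.535, adjusted p = 7.83e-07; -8.56 without joint migrated replicate 3) and 66.2-fold in the skin (log2 -6.05 ± 0.492, adjusted p = 2.03e-06; -6.66 without skin migrated replicate 1). The difference between these falls was not called (-1.73 ± 0.693 log2 units, adjusted p = 0.142).

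F10, which lies next to F7 and encodes the protease that makes thrombin, reached 290, 288 and 254 CPM in joint nonmigrated and 892, 856 and 585 CPM in skin nonmigrated cells. Joint migrated cells held 0.924, 2.24 and 2.68 CPM and skin migrated cells 6.65, 5.84 and 7.22 CPM. All 4 ranges were separate, and the joint was the lower site in both compartments. The fall from nonmigrated to migrated was 142-fold in the joint (log2 -7.15 ± 0.36, adjusted p = 1.38e-07) and 119-fold in the skin (log2 -6.89 ± 0.354, adjusted p = 8.34e-08), with a difference of -0.26 ± 0.403 log2 units between them (adjusted p = 0.714). Between sites, F10 was 2.81-fold lower in joint than in skin nonmigrated cells (log2 -1.49 ± 0.276, adjusted p = 0.00286). It was also 3.38-fold lower in joint than in skin migrated cells (log2 -1.76 ± 0.307, adjusted p = 0.0187). That last call was lost without joint migrated replicate 2 (adjusted p = 0.0636), skin migrated replicate 1 (0.069) or skin migrated replicate 3 (0.0772).

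F5, the cofactor of factor X, varied widely between libraries of 1 group. It was at 44.1, 64.1 and 136 CPM in joint nonmigrated, 1.11, 2.06 and 14.3 CPM in joint migrated, 25.2, 14.6 and 122 CPM in skin nonmigrated and 5.17, 0.15 and 16 CPM in skin migrated cells. Replicate 3 was the highest library in each of these 4 groups, and the skin ranges of migrated and nonmigrated cells overlapped. F5 fell 14-fold in the joint (log2 -3.81 ± 1.25, adjusted p = 0.0217). This call was lost without joint nonmigrated replicate 3 (log2 -3.22, adjusted p = 0.0623), joint migrated replicate 1 (0.0658) or joint migrated replicate 2 (0.0777), and the change was -5.66 without joint migrated replicate 3. In the skin the change of -2.91 ± 1.22 log2 units missed the threshold (adjusted p = 0.0595), and passed it without skin nonmigrated replicate 2 (0.0406), without skin migrated replicate 3 (log2 -4.34, 0.032) or with all 18 libraries in a single fit (0.0241). Without skin nonmigrated replicate 3 it was -1.47 (adjusted p = 0.296).

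Within each nonmigrated and migrated group, the summed level of the eosinophil markers Epx, Prg2 and Siglecf ranked the 3 libraries as F5 did. It was 15.4, 27.1 and 83.7 CPM in joint nonmigrated, 1.91, 2.57 and 5.36 CPM in joint migrated, 5.34, 2.4 and 30.8 CPM in skin nonmigrated and 3.72, 2.65 and 7.36 CPM in skin migrated cells. Replicate 3 was again the highest in each of these groups. Between migrated and nonmigrated cells, 2 of 3 eosinophil markers were called lower in the joint. In the skin 0 of 3 were called, with a median log2 change of 0.26, and Epx was at or under the floor in every skin nonmigrated library. Mast cell markers were also highest in replicate 3 of all 4 groups, at 395, 273, 341 and 24.9 CPM in the same order. What part either cell type had in the F5 level was not tested.

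**Figure D4:**
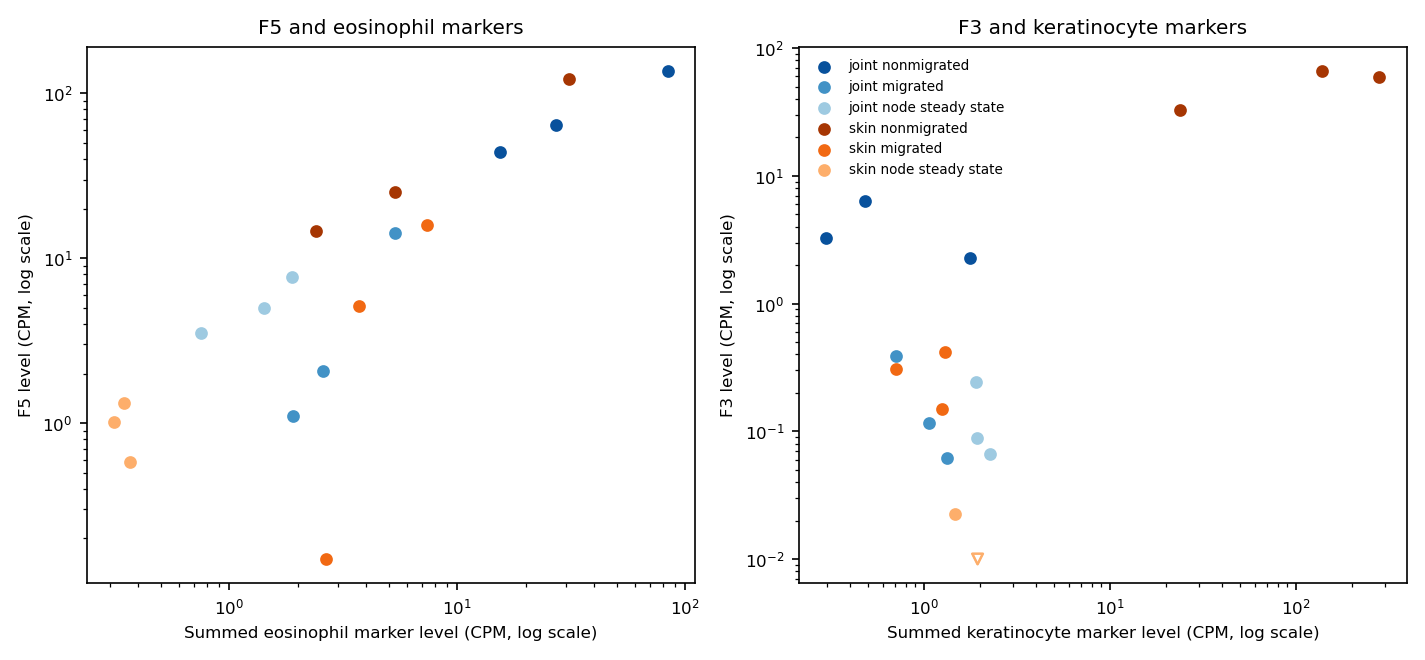
Left, F5 level against the summed level of 3 eosinophil markers, and right, F3 level against the summed level of 4 keratinocyte markers, each point a library (CPM, log axes; open triangles, drawn at 0.01, are libraries with 0 reads). F5 and the eosinophil markers were highest together in joint nonmigrated replicate 3 (136 and 83.7 CPM), and F3 exceeded 30 CPM only in the skin nonmigrated libraries, where keratinocyte markers summed to 23.7 to 281 CPM.

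F13a1, the fibrin-crosslinking chain of factor XIII, was at 279, 602 and 517 CPM in joint nonmigrated and at 324, 192 and 802 CPM in skin nonmigrated cells. Migrated cells held 1.99, 6.21 and 6.11 CPM in the joint and 1.58, 0.999 and 1.82 CPM in the skin. The nonmigrated ranges overlapped between sites, whereas migrated and nonmigrated cells stood far apart. F13a1 had the largest fall of the 9 genes in the skin, 297-fold (log2 -8.22 ± 0.721, adjusted p = 3.5e-06; -7.45 without skin nonmigrated replicate 3), and fell 97.8-fold in the joint (log2 -6.61 ± 0.649, adjusted p = 7.66e-06). Joint and skin did not differ by a called amount in nonmigrated (0.09 ± 0.504 log2 units, adjusted p = 0.913) or migrated cells (1.69 ± 0.619, adjusted p = 0.196). Platelets and their precursors also carry F13a1, and 5 of their markers summed to 96.5 to 184 CPM in joint nonmigrated, 90.3 to 365 CPM in skin nonmigrated and 2.01 to 8.42 CPM in all migrated libraries. In the skin nonmigrated group 2 of the 5, Gp9 and Gp1bb, were at or under the floor in every library, and the part of platelets in the F13a1 level was not tested.

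Thbd, the thrombin receptor that serves the anticoagulant arm, was at 50.7, 59.8 and 71.5 CPM in joint nonmigrated and at 27.5, 14.3 and 46 CPM in skin nonmigrated cells. It was at 1.91, 2.03 and 3.04 CPM in joint migrated and at 2.23, 0.399 and 1.37 CPM in skin migrated cells. Every joint nonmigrated library lay above every skin nonmigrated one, while the migrated ranges overlapped. The fall was 26-fold in the joint (log2 -4.70 ± 0.501, adjusted p = 1.4e-05) and 21.7-fold in the skin (log2 -4.44 ± 0.525, adjusted p = 3.03e-05), with a difference of -0.26 ± 0.673 log2 units (adjusted p = 0.843). The excess of 2.07-fold in joint nonmigrated cells was not called (log2 1.05 ± 0.429, adjusted p = 0.0895), and passed the threshold without skin nonmigrated replicate 3 (0.0138) or with all 18 libraries fitted together (0.0397). Summed endothelial markers were 9.93 to 11.5 CPM in joint and 24.3 to 36.9 CPM in skin nonmigrated cells, the reverse of the Thbd order, and their part in the Thbd level was not tested.

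Plau, which encodes urokinase, was at 58.6, 62.9 and 61.3 CPM in joint nonmigrated, 94.4, 76.9 and 104 CPM in skin nonmigrated, 1.07, 2.29 and 2.12 CPM in joint migrated and 3.16, 2.6 and 3.37 CPM in skin migrated cells. All 4 ranges were separate, in the same order as those of F10. Plau fell 33.4-fold in the joint (log2 -5.06 ± 0.253, adjusted p = 1.37e-07) and 30.2-fold in the skin (log2 -4.92 ± 0.254, adjusted p = 8.74e-08), a difference of -0.14 ± 0.318 log2 units (adjusted p = 0.807). The lower level in joint than in skin cells was not called in nonmigrated (log2 -0.60 ± 0.209, adjusted p = 0.053) or migrated cells (log2 -0.74 ± 0.244, adjusted p = 0.154).

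Plaur, the urokinase receptor, was at 400, 419 and 496 CPM in joint nonmigrated and at 1023, 759 and 549 CPM in skin nonmigrated cells. In migrated cells the order of the sites was turned round, with 25.6, 24 and 55.8 CPM in the joint and 19, 7.34 and 11.4 CPM in the skin. No range overlapped another, the lowest skin nonmigrated library lying above the highest joint one and the highest skin migrated library below the lowest joint one. Plaur fell 12.5-fold in the joint (log2 -3.64 ± 0.412, adjusted p = 2.13e-05) and 61.8-fold in the skin (log2 -5.95 ± 0.463, adjusted p = 1.55e-06). The fall was 2.31 ± 0.538 log2 units smaller in the joint (adjusted p = 0.0251), and Plaur was the only 1 of the 9 for which this difference between sites was called, where 6.13% of all genes were called in either direction. That call was lost without joint nonmigrated replicate 1 (0.0576) or 2 (0.0676), skin nonmigrated replicate 1 (0.0675) or skin migrated replicate 3 (0.0598). Neither site difference alone was called, at -0.83 ± 0.373 log2 units in nonmigrated (adjusted p = 0.118) and 1.48 ± 0.388 in migrated cells (adjusted p = 0.0851). Between nonmigrated cells, 4 of 6 neutrophil markers were called higher in the joint (summed 4962 to 15243 against 1419 to 2497 CPM), as were 3 of 3 B cell markers. Called lower there were 3 of 3 mature migratory dendritic cell, 3 of 5 dendritic cell and 4 of 4 T cell markers. Of 7 monocyte and macrophage markers 0 were called. The part of these cell types in the Plaur level was not tested.

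Serpinb2, the urokinase inhibitor PAI-2, resembled F3. It was at 66, 30.6 and 39.8 CPM in skin nonmigrated and at 1.18, 2.66 and 9.35 CPM in joint nonmigrated cells, with no overlap. Migrated cells held 0.372, 0 and 1.64 CPM (8, 0 and 37 reads) in the skin and 0.0616, 0.117 and 1.29 CPM (3, 5 and 60 reads) in the joint, where the ranges of migrated and nonmigrated cells overlapped. Serpinb2 fell 65.9-fold in the skin (log2 -6.04 ± 1.18, adjusted p = 0.00108; -7.88 without skin migrated replicate 3) and 8.88-fold in the joint (log2 -3.15 ± 1.07, adjusted p = 0.026; -5.54 without joint migrated replicate 3). The joint call was lost without joint nonmigrated replicate 3 (log2 -1.95, adjusted p = 0.153), joint migrated replicate 1 (0.0799) or joint migrated replicate 2 (0.0884). Joint nonmigrated cells held 10.4-fold less than skin nonmigrated cells (log2 -3.37 ± 0.986, adjusted p = 0.0261; -4.58 without joint nonmigrated replicate 3). This call was lost without joint nonmigrated replicate 1 (0.0794) or 2 (0.094) or skin nonmigrated replicate 1 (0.0926), and by the DESeq2 test (0.0533).

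Across sites, then, 3 of the 9 genes were called lower in joint than in skin nonmigrated cells (F3, F10 and Serpinb2), where 8.86% of all genes were. No gene of the 9 was called higher, and of all 16777 genes 2400 were called in either direction. In migrated cells 1 of 9 (F10) was called lower in the joint, where 0.578% of all genes were. The DESeq2 test called 4 of 9 there in either direction, where it called 2.72% of the 17932 genes it gave an adjusted p, adding F7 (lower in the joint, log2 -1.87, adjusted p = 0.0115), F13a1 (higher, log2 1.70, adjusted p = 0.0328) and Plaur (higher, log2 1.49, adjusted p = 0.00554), which edgeR left at adjusted p of 0.138, 0.196 and 0.0851. The median log2 difference of the 9 between joint and skin was -0.60 in nonmigrated and -0.48 in migrated cells, beside 0.01 and -0.00 over all genes. The comparisons within and between sites share their libraries and are not independent of each other. Between sites, the tissue and the data set cannot be told apart.

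Migrated cells were next set against cells of the steady-state node of the same site. As the data set of the Naive samples is not stated, the skin comparison may also be one of data sets. In the joint 1 of 9 genes was called higher (Plau) and 4 lower (F10, F13a1, Thbd and Plaur), where 16.9% and 7.31% of 17107 genes were. In the skin 6 were called higher (F3, F7, F10, F5, Plau and Serpinb2) and 1 lower (Plaur), where 21.5% and 15% of all genes were. F3 and F7 had at most 1 read, and Serpinb2 had 0, in every skin node library. These genes passed the filter through the other groups, so in the skin they could be called only higher. They did not pass it when only the groups compared were fitted. The median log2 change was 0.13 in the joint and 2.89 in the skin, the latter with F3, F7 and Serpinb2 entered at their lower bound. All 7 monocyte and macrophage markers were called higher in skin migrated than in skin node steady-state cells, and in the joint 1 of 7 was called higher and 1 lower. All 6 neutrophil markers were called lower in joint migrated than in joint node cells (summed 33.2 to 86.1 against 398 to 790 CPM). All 3 B cell markers were called lower in migrated cells at both sites, at 406 to 548 against 2456 to 2804 CPM in the joint and 65.1 to 121 against 1566 to 2089 CPM in the skin. Of 5 dendritic cell markers 4 were called higher at both sites, at 269 to 529 against 25.1 to 30 CPM and 466 to 614 against 26.9 to 30.9 CPM. The part of these cell types in the changes was not tested.

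**Figure D5:**
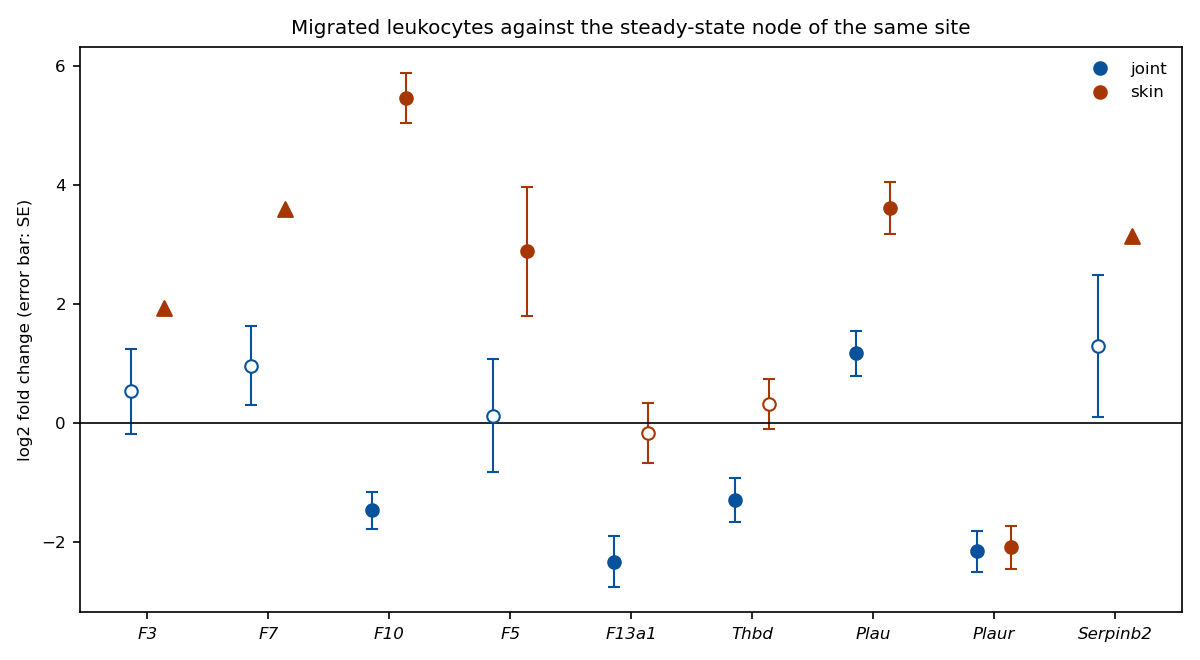
Log2 fold change of each gene between migrated cells and the steady-state node of the same site, with the SE as error bar; filled points were called, open points were not, and triangles are lower bounds for genes at or under 3 reads in all 3 skin node libraries. F10 was at -1.46 in the joint and 5.47 in the skin, whereas Plaur was at -2.15 and -2.08.

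The initiating pair F3 and F7 was close to absent from steady-state nodes. In the skin node each had 1, 0 and 0 reads, and in the joint node F3 had 4, 10 and 3 reads and F7 had 5, 6 and 6 reads. Skin migrated cells therefore held at least 3.85-fold more F3 (adjusted p = 0.00259) and at least 12.1-fold more F7 (adjusted p = 6.15e-05) than the skin node, measured against the floor of 3 reads per library. With so few skin node reads, neither gene could have been called lower there. In the joint the changes were not called (F3 0.54 ± 0.714 log2 units, adjusted p = 0.557; F7 0.97 ± 0.667, adjusted p = 0.248).

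F10 was at 5.6, 5.42 and 5.41 CPM in the joint node and at 0.112, 0.231 and 0.0916 CPM (5, 10 and 3 reads) in the skin node. The joint node thus lay above the joint migrated cells and the skin node below the skin migrated cells, without overlap in either case. F10 was 2.75-fold lower in joint migrated cells than in the joint node (log2 -1.46 ± 0.311, adjusted p = 0.00157) and 44.4-fold higher in skin migrated cells than in the skin node (log2 5.47 ± 0.42, adjusted p = 1.22e-07). The difference between these changes was -6.93 ± 0.526 log2 units (adjusted p = 1.77e-05), the largest of the 9.

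F5 was at 3.54, 7.73 and 4.97 CPM in the joint node and 1.01, 1.32 and 0.58 CPM in the skin node, and overlapped with the migrated cells of both sites. Its rise of 2.89 ± 1.08 log2 units in the skin (adjusted p = 0.0311) was lost without skin migrated replicate 3 (log2 1.42, adjusted p = 0.278) and without skin node replicate 1 (0.0804), 2 (0.0624) or 3 (0.0988). F13a1 was at 37.5, 20 and 15.7 CPM in the joint node, all above the joint migrated libraries, and at 1.26, 2.5 and 1.25 CPM in the skin node, where the ranges overlapped. It fell 5.01-fold in the joint (log2 -2.32 ± 0.423, adjusted p = 0.000492), and its change of -0.16 ± 0.497 log2 units in the skin was not called (adjusted p = 0.795). Thbd was at 4.65, 6.8 and 6.03 CPM in the joint node and 1.01, 1.02 and 1.25 CPM in the skin node. It fell 2.44-fold in the joint (log2 -1.29 ± 0.369, adjusted p = 0.0104) and was not called in the skin (0.33 ± 0.42 log2 units, adjusted p = 0.5).

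Plau was at 0.979, 0.663 and 0.821 CPM (44, 27 and 37 reads) in the joint node and at 0.314, 0.347 and 0.0611 CPM (14, 15 and 2 reads) in the skin node. Migrated cells lay above the node of their site in every library. Plau was 12.3-fold higher in skin migrated cells (log2 3.62 ± 0.441, adjusted p = 9.5e-06) and 2.26-fold higher in joint migrated cells (log2 1.18 ± 0.38, adjusted p = 0.0198). The joint call was lost without joint migrated replicate 2 (0.0821) or 3 (0.0588) or joint node replicate 2 (0.0794).

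Plaur behaved unlike its ligand. It was at 113, 172 and 193 CPM in the joint node and at 65.5, 49.1 and 49.5 CPM in the skin node, above every migrated library of the same site. It was 4.44-fold lower in joint migrated cells (log2 -2.15 ± 0.349, adjusted p = 0.000194) and 4.24-fold lower in skin migrated cells (log2 -2.08 ± 0.362, adjusted p = 0.000219). The changes of the 2 sites differed by -0.07 ± 0.488 log2 units (adjusted p = 0.951). Serpinb2 had 2, 13 and 11 reads in the joint node and 0 in all 3 skin node libraries. Skin migrated cells held at least 8.81-fold more than the floor of the skin node (adjusted p = 0.0145), a call lost without skin migrated replicate 3 (0.103), where the bound was 2.45-fold. Skin migrated replicate 2 had 0 reads, as the skin node did. The joint change of 1.30 ± 1.2 log2 units was not called (adjusted p = 0.394).

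The change between node and migrated cells differed by site for 3 of 9 genes, all lower in the joint (F7, F10 and Plau), where 6.11% of all genes were called in either direction. The node groups also differed in treatment (PBS in the footpad or Naive), which cannot be told apart from site here. Whether the Naive and the skin migrated samples share a data set is not stated, so data set cannot be told apart either. For Plau the difference was -2.44 ± 0.579 log2 units (adjusted p = 0.0185). For F7 it was -5.40 ± 1.28 log2 units (adjusted p = 0.0187), a fitted value that depends on the prior count because the skin node had 1, 0 and 0 reads. The F7 call was lost without skin node replicate 2 (0.0653) or 3 (0.0504), and its value was -7.12 without skin node replicate 1, -6.15 without joint migrated replicate 3 and -4.75 without skin migrated replicate 1. Without joint migrated replicate 3 the number of genes called rose from 3 to 7, with F3, F5, F13a1 and Serpinb2 added. F13a1 was also called without skin node replicate 2 (0.0495) and Thbd without skin migrated replicate 2 (0.00942).

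The steady-state nodes themselves were compared, joint against skin. The joint node mice had PBS in the footpad and the skin node mice were named Naive, so site and treatment cannot be told apart here. The data set of the Naive samples is not stated and may differ as well. All 9 genes had every joint node library above every skin node library, as 16.4% of the 17107 genes tested did, and 5 of 9 were called higher, where 3.23% of all genes were. For some genes this separation rested on few reads, and none of these was called. Serpinb2 had 2, 13 and 11 reads in the joint node against 0 in each skin node library. F3 had 4, 10 and 3 reads against 1, 0 and 0, and F7 had 5, 6 and 6 against 1, 0 and 0. F10 was 35.9-fold higher (log2 5.17 ± 0.416, adjusted p = 7.05e-06), F13a1 14.4-fold (log2 3.85 ± 0.462, adjusted p = 0.000153) and Thbd 5.3-fold (log2 2.41 ± 0.393, adjusted p = 0.00179). Plau was 3.24-fold (log2 1.69 ± 0.446, adjusted p = 0.0342) and Plaur 2.89-fold higher (log2 1.53 ± 0.342, adjusted p = 0.0142). The Plau call was lost whenever any of the 6 node libraries was left out (adjusted p 0.0594 to 0.0993), and the Plaur call without joint node replicate 2 (0.0515) or 3 (0.0597) or skin node replicate 2 (0.0748) or 3 (0.073). Neutrophil markers summed to 398 to 790 CPM in the joint node and 10.7 to 17.5 CPM in the skin node, with 6 of 6 called higher, and 5 of 7 monocyte and macrophage markers were called higher (231 to 271 against 139 to 164 CPM). Their part in the node difference was not tested.

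The rest of the pathway was covered by 4 lists of genes outside the 9. Over all 16777 genes tested between migrated and nonmigrated cells, 5757 were called in either direction in the joint and 5940 in the skin. Against the node it was 4143 (joint) and 6249 (skin) of 17107. The counts of called genes in the 4 lists are descriptions to be read beside these. Of the 16 other procoagulant genes, 8 were tested in the tissue comparison. Vwf, which tethers platelets, fell in both sites (log2 -3.71 ± 0.325, adjusted p = 3.6e-06 in the joint and -4.76 ± 0.35, adjusted p = 1.05e-06 in the skin). F2, the gene of prothrombin, was instead higher in migrated cells, with 21, 33 and 43 reads in joint migrated against 0, 1 and 2 in joint nonmigrated cells (at least 7.81-fold, adjusted p = 0.000231) and 7, 9 and 10 against 1, 1 and 0 in the skin (at least 2.38-fold, adjusted p = 0.0051). In all, 1 rose and 2 fell of 8 in the joint, and 1 rose and 1 fell of 8 in the skin, beside 5757 and 5940 called of all 16777 genes. Against the steady-state node, 3 of 9 tested rose at each site, none fell, and they were Kng2, F2 and Vwf in both. Kng2 had 4, 18 and 13 reads in joint migrated cells (at least 3.78-fold) and 2, 5 and 2 in skin migrated cells (at least 1.89-fold), against 0 in every node library. F2 had 7, 9 and 10 reads in skin migrated cells against 2, 0 and 3 in the skin node (at least 5.34-fold).

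Of 10 anticoagulant genes, 6 were tested in the tissue comparison, with 1 higher and 3 lower in joint migrated cells and 1 higher and 4 lower in skin migrated cells. Serpinc1, the gene of antithrombin, rose (log2 2.78 ± 0.397, adjusted p = 0.00012 in the joint and 4.00 ± 0.484, adjusted p = 3.55e-05 in the skin). Serping1, the C1 inhibitor, fell (log2 -6.56 ± 0.869, adjusted p = 6.85e-05 and -4.64 ± 0.92, adjusted p = 0.00117), as did Pros1, the gene of protein S (log2 -4.19 ± 0.575 and -2.60 ± 0.56). Procr, the endothelial protein C receptor, was the gene of this list with the largest change against the node, at 6.69 to 18.4 CPM in joint migrated against 0.0222 to 0.147 CPM in joint node cells (log2 7.33 ± 0.495, adjusted p = 8.86e-08) and at 23.4 to 27.6 against 0.0916 to 0.301 CPM in the skin (log2 7.02 ± 0.447, adjusted p = 2.33e-08). Procr was also lower in joint than in skin nonmigrated cells (log2 -3.52 ± 0.454, adjusted p = 0.000384), as F3 and Serpinb2 were.

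The protease-activated receptors, through which thrombin and factor X act on cells, formed a list of 4. Of these, 3 were called higher in joint migrated cells and 2 higher and 1 lower in skin migrated cells. F2rl1 was at 24.9 to 47.5 CPM in joint migrated against 1.45 to 3.29 CPM in joint nonmigrated cells (log2 4.08 ± 0.427, adjusted p = 1.23e-05) and at 34.8 to 51.4 against 2.44 to 7.25 CPM in the skin (log2 3.25 ± 0.414, adjusted p = 5.12e-05). F2rl3 rose at both sites (log2 2.13 ± 0.32 and 2.29 ± 0.337), F2r in the joint (2.31 ± 0.37), and F2rl2 fell in the skin (-1.30 ± 0.236). In the steady-state nodes F2rl1 was at 29.2 to 36.4 CPM (joint) and 41.4 to 47.8 CPM (skin), and its change against the node was not called, while F2rl2 and F2r were called higher in migrated cells than in the node at both sites. Markers of other cell types also rose from nonmigrated to migrated cells. T cell markers were called higher for 4 of 4 in the joint (summed 94.1 to 189 against 781 to 1035 CPM) and 3 of 4 in the skin (181 to 463 against 864 to 921 CPM). All 3 B cell markers (55.7 to 146 against 406 to 548 CPM in the joint, 0.78 to 2.75 against 65.1 to 121 CPM in the skin) and all 3 mature migratory dendritic cell markers (88.6 to 138 against 2157 to 5743 CPM, and 318 to 1426 against 4195 to 6042 CPM) were called higher at both sites. Their part in the receptor changes was not tested.

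Of 12 further fibrinolysis genes, 8 were tested in the tissue comparison, with 1 higher and 4 lower in joint migrated and none higher and 3 lower in skin migrated cells. Lrp1, a receptor that clears protease and inhibitor complexes, fell most (log2 -6.38 ± 0.441, adjusted p = 8e-07 in the joint and -5.32 ± 0.421, adjusted p = 1.69e-06 in the skin). Serpine2, a protease inhibitor, fell in both sites as well (log2 -2.90 ± 0.412, adjusted p = 0.000116 and -1.23 ± 0.399, adjusted p = 0.0198). Plat, the gene of the second plasminogen activator tPA, was higher in joint migrated cells (log2 2.08 ± 0.625, adjusted p = 0.0142). Against the node, 4 rose and 1 fell in the joint and 6 rose in the skin, among them Anxa2 (log2 3.57 ± 0.166 and 5.33 ± 0.181) and Plat (3.33 ± 0.482 and 2.36 ± 0.469). Anxa2 is part of a plasminogen receptor on cells.

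The genes most like each of the 9 were sought among the 15948 genes tested in both the tissue and the node comparisons. The measure was Pearson's r of log2(CPM + 1) over the 18 libraries, which share tissue and depth by group, so that r is a description only. F10 ran closest with Clec5a (r = 0.998), Ifi204 (0.994) and Ccr1 (0.993), F7 with Mitf (0.995), Slc7a2 (0.993) and Gab1 (0.993), and Plau with Atp6v1a (0.994), Tbkbp1 (0.994) and Arg1 (0.993). F3 ran with Rhov (0.994), Mmp13 (0.991) and A930007I19Rik (0.990), and Serpinb2 had F3 itself as its nearest gene (0.979). F13a1 ran with Mgst1 (0.983), Ms4a4a (0.983) and Cd33 (0.980), Thbd with Igfbp6 (0.989) and Plcb1 (0.986), and Plaur with Trim25 (0.984), Syk (0.974) and Flcn (0.967). F5 had the loosest likeness, with Siglecf (0.943), a surface receptor of eosinophils, Hacd4 (0.937) and Kctd12 (0.934). Among the 9 themselves r ran from 0.661 (F3 and F5) to 0.987 (F7 and Plau).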

How the data were processed

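Per the labels and the study's methods, the authors sorted viable single CD45+ Kaede red cells, sequenced paired reads, trimmed them with Trim-Galore!, aligned them with TopHat2 to mm10 with transcriptome version 87 and counted reads per gene with HTSeq. The deposited table holds these raw counts for 18 samples. After 5 summary lines were removed it held 49585 genes, of which 49326 matched GENCODE release M21, the source of symbols, exon lengths and positions. Samples were grouped by their labels.

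Differences came from the quasi-likelihood F test of edgeR 4.0.16 under R 4.3.3, on TMM-scaled counts of genes that filterByExpr kept at its minimum count of 10. Group was the sole term, in a fit of the 12 inflamed libraries (16777 genes) or of the 12 node libraries (17107 genes). Benjamini-Hochberg adjustment ran over all genes of each comparison, and calls required both an adjusted p below 0.05 and a log2 change larger than 1 in size. The SE was taken as log2 change over root F. In simulated data, 75% of 200 genes changed 4-fold were recovered for joint migrated against joint nonmigrated cells (16361 genes), and 85.5% for joint migrated cells against the joint node (16675 genes). Alternatives were an adjusted p under 0.001, DESeq2 size factors, the DESeq2 1.42.0 Wald test, no filter, all 18 libraries in a single fit, only the groups compared, a replicate block and leaving out each library.

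Library depth is given with the results. Libraries of a group differed by far more than sampling noise (chi-square per degree of freedom 16.2 to 130). All 9 genes passed the filter in both fits. The 9 genes are named in every comparison, and from the pathway lists up to 3 called genes a direction. Some genes that this rule names are not reported here. The genes, lists and tests were chosen with earlier results of these data known, so counts over them are descriptions.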

Additional observations from a re-analysis of the deposited data

Results flagged for a closer look

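Some changes differed between joint and skin by a test of the difference itself. The fall of Plaur from nonmigrated to migrated cells was 2.31 log2 units smaller in the joint than in the skin (adjusted p = 0.0251 by edgeR). For the change from steady-state node to migrated cells, joint minus skin was -5.40 log2 units for F7 (adjusted p = 0.0187), -6.93 for F10 (adjusted p = 1.77e-05) and -2.44 for Plau (adjusted p = 0.0185). The node baselines were not alike (PBS in the footpad for the joint, Naive for the skin), so site and baseline treatment cannot be told apart in these node values. Nor can the data set, which is not stated for the Naive samples. F10 fell in the joint and rose in the skin, Plau rose in both, and F7 was called in the skin alone.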

How the results depend on the processing

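At an adjusted p under 0.001 the counts of genes called were 1 for joint against skin nonmigrated, 0 for joint against skin migrated, 0 for the site difference in the migration change, 2 for joint migrated against its node, 4 for skin migrated against its node, 2 between the nodes and 1 for the site difference in the node change. With no filter on low counts the counts became 2 for joint against skin migrated, 2 for the difference in the migration change, 8 between the nodes and 7 for the difference in the node change. The DESeq2 Wald test gave 4, 2 and 5 for joint against skin migrated, the migration difference and the node difference. All 18 libraries in a single fit gave 2 for joint against skin migrated and 2 for the migration difference. Fitting only the groups compared gave 4 for skin migrated against its node, where 6 of the 9 genes passed the filter and F3, F7 and Serpinb2 did not.

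Replicate numbers were not shown to pair libraries (correlations of same-numbered deviations 0.021, 0.254 and 0.195 in the joint and 0.173, 0.0735 and 0.148 in the skin, migrated with nonmigrated). With a replicate block the migration difference had 2 calls, F3 being added (adjusted p = 0.0226). F5 was then called in the skin (log2 -3.19, 0.00314) and had 0.000661 in the joint, Thbd was called between nonmigrated cells (0.0125) and F13a1 between migrated cells (0.0428). The calls lost under the block were F10 between migrated cells (log2 -1.82, 0.0551), Plau (0.0659) and F5 (0.145) against the joint and skin node respectively, Plau between the nodes (0.083) and Plau in the node difference (0.0549). Under it, F5 in joint migrated cells against the node turned from 0.13 to -0.66 log2 units, neither value called.

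Leaving out libraries in turn moved the counts over 0 to 1 (joint against skin migrated), 0 to 2 (migration difference), 3 to 4 (between the nodes) and 2 to 7 (node difference). The log2 values that changed sign, none of them called, ranged in joint against skin nonmigrated cells over -0.35 to 0.14 (F7) and -0.27 to 0.85 (F13a1), and in joint against skin migrated cells over -2.16 to 1.15 (F5) and -2.88 to 1.37 (Serpinb2). In the migration difference they ranged over -2.75 to 0.53 (F5), -0.53 to 0.10 (F10), -0.75 to 0.31 (Thbd) and -0.34 to 0.15 (Plau). Against the joint node they ranged over -0.52 to 1.27 (F3), -1.74 to 0.60 (F5) and -1.12 to 1.80 (Serpinb2), against the skin node over -0.39 to 0.21 (F13a1) and -0.28 to 0.71 (Thbd), and in the node difference over -0.50 to 0.40 (Plaur). The cause of these changes was not tested. DESeq2 size factors moved no count by over 1.5 times. With 3 pools a group and few reads of F3, F7 and Serpinb2 in LN cells, depth limits what the node comparisons of these genes can show.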
